A study of Mus musculus with 6 samples.

Results

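The genes described here are 8 genes of the SUMO system, *Sumo2*, *Sumo3*, *Sae1*, *Uba2*, *Pias1*, *Senp1*, *Senp2* and *Senp6*, chosen by gene symbol from the 37979 genes of the table. All 8 were found and all 8 passed the filter on low values, which asked for 0.5 FPKM or more on average. FPKM count the fragments of a gene relative to its transcript length and the depth of the library, so levels can be set side by side between genes, though only roughly. This scaling takes no account of GC content or of near copies of a gene, both described below. RNA of the hindlimb gastrocnemius (GAS) muscle was sequenced from 3 wildtype (WT) and 3 Kvβ2 knockout (KO) mice with 1 library per mouse, numbered 1, 7 and 8 in each genotype, and the values of a genotype are given in that order. The mice were untreated young males, 20 weeks of age. KO mice were homozygous for a null allele of the Kvβ2 gene, and came with their age-matched WT mice from crosses of Kvβ2+/- parents. The comparison asks how SUMO gene expression differs in muscle that lacks Kvβ2, the cytoplasmic β2 subunit of voltage-gated potassium channels.

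SUMO proteins are small relatives of ubiquitin that are joined to lysines of other proteins, many of them nuclear. A precursor is first cut behind a pair of glycines, the E1 heterodimer of Sae1 and Uba2 then activates it, and ligases such as the PIAS proteins help its transfer. SENP proteases cut the precursors and take SUMO off its targets again. The mature forms of Sumo2 and Sumo3 are nearly the same protein and can form chains.

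*Sumo2* and *Sumo3* differ at the place where the precursor is cut, and their coding ends are printed here to show it, since the FPKM below treat them as separate genes. Codons are from GENCODE vM21 on GRCm38, 5′ to 3′ on the coding strand up to the stop codon, with the codons of the glycine pair in capitals.
Sumo2: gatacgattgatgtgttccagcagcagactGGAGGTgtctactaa
Sumo3: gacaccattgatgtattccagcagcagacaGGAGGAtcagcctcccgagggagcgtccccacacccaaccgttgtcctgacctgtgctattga
Behind the glycine pair, 2 codons follow in *Sumo2* and 18 in *Sumo3*. Over the coding part, *Sumo2* and *Sumo3* shared 236 of 285 aligned bases (82.8%), and their longest identical run was 17 bases. Sequenced fragments are longer than this run.

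At an adjusted p under 0.05 (limma on log2(FPKM + 0.1), Benjamini-Hochberg over the 12334 tested genes), 0 of the 8 genes were called in either direction, beside 0.073% of all tested genes called lower and 0.251% called higher. The 8 genes were above 0 in every library. When only such genes were tested, the 40 calls over all tested genes became 1, and 0 members were called. Taking an unadjusted p under 0.05 instead, 3 of the 8 were lower in the KO mice, *Sumo2*, *Uba2* and *Senp2*, and 0 were higher, beside 10.9% and 15.3% of all tested genes. The same 3 genes were the members in which every KO library lay under every WT library, as 16.2% of all tested genes did, and 0 of the 8 lay above, as 18.3% did. The median log2 fold change of the 8 genes was -0.15, and that of all tested genes was 0.01. The remaining 5 genes had overlapping genotypes. The count of 3 fell to 1, *Sumo2*, without KO replicate 7, without WT replicate 7 or without WT replicate 8. It was 2 without KO replicate 8, *Sumo2* and *Senp6*, and 2 without the variance trend, *Sumo2* and *Senp2*. With limma's array weights, which weight libraries by their spread, *Sumo2*, *Uba2* and *Senp2* were all called lower, beside 10.4% of all tested genes.

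**Figure D1:**
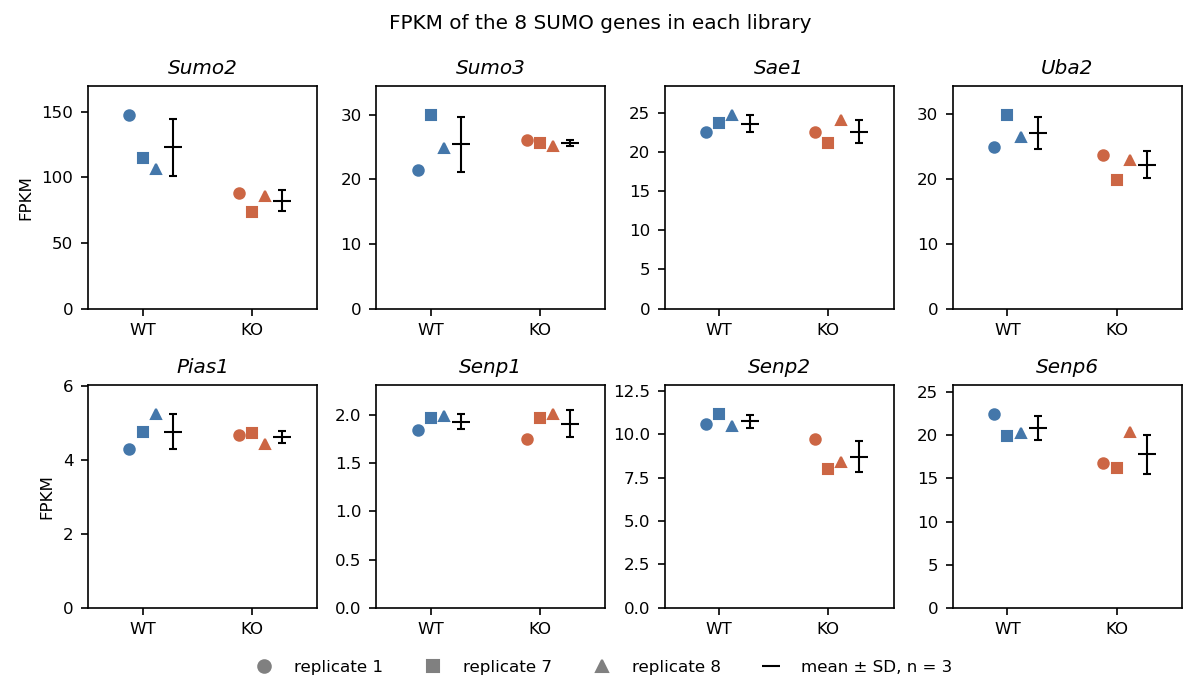
FPKM (vertical axes, each from 0) of the 8 SUMO genes in WT and KO libraries, with 1 point per library, its shape giving the replicate number, and the mean ± SD (n = 3) beside the points. The KO points lie under all WT points for *Sumo2*, *Uba2* and *Senp2*, and the genotypes overlap for the other 5 genes.

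The targeted gene *Kcnab2*, which encodes Kvβ2, stood at only 0.10 to 0.233 FPKM in the WT libraries. KO replicates 1 and 8 list it at 0, and KO replicate 7 at 0.0151 FPKM. At an estimated 0 to 18 fragments per library, *Kcnab2* was under the filter on low values and was not tested. Several measures of the libraries themselves moved with the genotype. By steps of whole fragments in the low values, the KO libraries held 13920000 to 18150000 fragments and the WT libraries 19230000 to 20140000, without overlap. Across the 11985 tested genes of known GC content (the share of G and C in the annotated transcripts), the log2 fold change rose with GC content (Spearman's rho 0.70, a description across genes of the same libraries). Genes of 40% to 44% GC had a median log2 fold change of -0.30, and genes of 56% to 60% GC one of 0.51. Each log2 fold change of a member is therefore also given after each library was corrected for its trend on GC content. The summed FPKM of all 8 marker lists (muscle fibers, satellite cells, leukocytes, endothelium, fibroblasts, adipocytes, Schwann cells and erythrocytes) overlapped between the genotypes. The 10 fiber markers summed to 41743 to 60266 FPKM in WT and 57546 to 65715 FPKM in KO muscle, and of these the fast myosin gene *Myh4* was listed at 0 in all 6 libraries. The fiber actin gene *Acta1* did not overlap by itself, at 5029 to 9656 FPKM in WT and 12045 to 13917 FPKM in KO muscle, and neither did *Ckm*, *Myh2* and *Des*, which were also higher in KO muscle. Of all 41 markers, 8 lay higher in every KO library than in every WT library and 0 lower, beside 18.3% and 16.2% of all tested genes. Beside the 4 fiber genes these were *Myf5*, *Plin1*, *Cidec* and *Hba-a1*. The satellite cell gene *Myf5* (0.216 to 0.328 FPKM in WT, 0.386 to 0.797 FPKM in KO) was under the filter. The adipocyte genes were *Plin1* (0.138 to 0.50 FPKM in WT, 1.14 to 7.37 FPKM in KO) and *Cidec* (0.714 to 3.49 FPKM in WT, 4.25 to 24.5 FPKM in KO). The globin gene was *Hba-a1* (27.4 to 43.5 FPKM in WT, 56.1 to 116.8 FPKM in KO). The other satellite cell markers overlapped, with WT and KO means of 0.192 and 0.0955 FPKM (*Calcr*), 0.421 and 0.418 FPKM (*Pax7*) and 0.869 and 0.979 FPKM (*Vcam1*). Of the fiber markers that overlapped, *Pvalb* and *Mylpf* had lower KO means, and *Tnnc2*, *Myh1* and *Mb* higher ones. The part of these markers in the SUMO values was not tested. In bulk muscle, fewer cells of a type and less RNA per cell cannot be told apart.

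*Sumo2* was the gene with the highest level and, in the deposited values, the largest difference of the 8 genes. *Sumo2* (ENSMUSG00000020738, minus strand, chr11:115523102-115536276 of GRCm38, with 4 exons in its longest coding transcript) measured 147.3, 115.0 and 106.2 FPKM across the WT mice and 87.7, 73.4 and 85.5 FPKM across the KO mice. Each KO library was lower than each WT library, and WT replicate 1 was the highest of all. The WT mean was 122.8 ± 21.7 FPKM (SD, n = 3), and the mean of the KO mice was 82.2 ± 7.71 FPKM (SD, n = 3). The log2 fold change was -0.57 (standard error 0.15, 95% interval -0.92 to -0.22, limma adjusted p = 0.0888), a KO level 0.674 times that of WT. It was -0.43 without WT replicate 1. After the GC correction it was -0.26 (standard error 0.11, limma adjusted p = 0.443), and it was -0.16 with the correction and without WT replicate 1, a setting chosen after the values were seen, in which *Senp2* (-0.20) and *Uba2* (-0.19) differed by more. *Sumo2* transcripts have 41.8% GC, and 4.4% of all tested genes had a lower log2 fold change.

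*Sumo3* (ENSMUSG00000020265, plus strand, chr10:77606097-77618331) measured 21.4, 29.9 and 24.9 FPKM across the WT mice and 26.0, 25.6 and 25.1 FPKM across the KO mice. All KO values lay inside the WT range. The log2 fold change was 0.02 (standard error 0.14, 95% interval -0.30 to 0.34, limma adjusted p = 0.929), an interval that holds changes in either direction, and after the GC correction it was -0.02.

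*Sumo2* exceeded *Sumo3* 6.88-, 3.84- and 4.27-fold in WT replicates 1, 7 and 8 and 3.37-, 2.87- and 3.40-fold in KO replicates 1, 7 and 8. All KO ratios were under all WT ratios, and WT replicate 1 stood well above the others. The groups of *Sumo2* to *Sumo3* ratios overlapped after the GC correction. An exact permutation test of 3 against 3 cannot give a two-sided p under 0.1, so these ratios are given as a description. *Sumo2* and *Sumo3* together summed to 148.2 ± 19.1 FPKM (SD, n = 3) per WT library, against 107.8 ± 7.79 FPKM (SD, n = 3) per KO library, without overlap. Of that sum *Sumo2* made up 79.3% to 87.3% in WT and 74.2% to 77.3% in KO muscle.

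**Figure D2:**
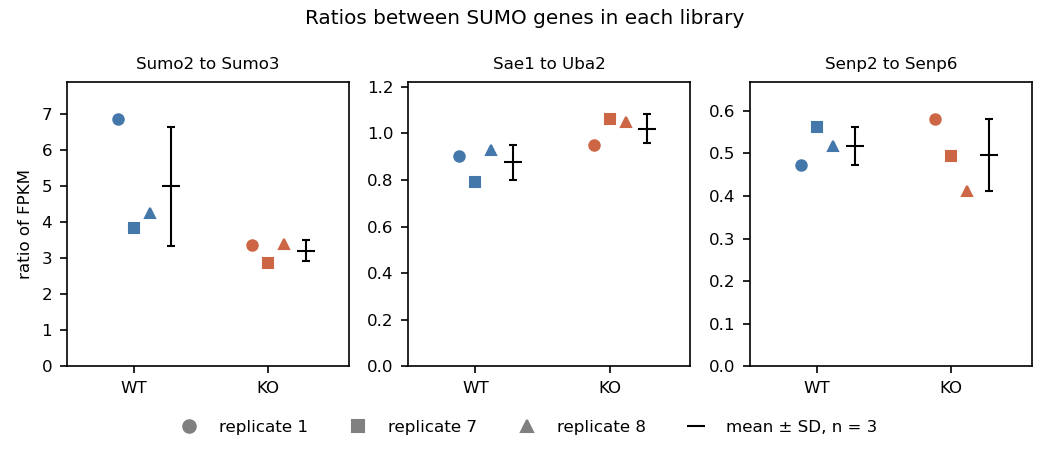
Ratios of FPKM (vertical axes, each from 0) between pairs of SUMO genes in WT and KO libraries, with 1 point per library, its shape giving the replicate number, and the mean ± SD (n = 3). KO ratios lie under WT ratios for *Sumo2* to *Sumo3* and above them for *Sae1* to *Uba2*, while *Senp2* to *Senp6* overlaps.

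*Sumo2* has many near copies. By alignment, 14 annotated pseudogenes matched its coding transcripts over at least 200 bases at 90% identity or more, and 9 of them were listed at 0 in all 6 libraries. The copy *Gm10241* matched over 286 bases at 100% and was among those at 0, so fragments it shared with *Sumo2* would be counted at one gene or the other in a way the FPKM do not show. The highest pseudogene value was 9.77 FPKM, for *Gm11971* in KO replicate 1. Summed over the 14, the pseudogenes held 6.54 to 9.33 FPKM in WT and 6.60 to 10.3 FPKM in KO libraries, with overlap. The coding gene *Samd8* carried a 532-base match to *Sumo2* as well. *Samd8* measured 9.14, 12.3 and 14.2 FPKM in WT and 8.32, 6.80 and 9.64 FPKM in KO libraries, with overlap. A part of these copies in the *Sumo2* values was not tested. *Sumo3* matched 1 pseudogene, listed at 0 throughout, and shares its strand with the overlapping gene *Gm49325*, which was not analysed here.

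The subunits of the E1 heterodimer are encoded by *Uba2* and *Sae1*. *Uba2* (ENSMUSG00000052997, minus strand, chr7:34140688-34169599), the catalytic subunit, measured 24.9, 29.9 and 26.5 FPKM across the WT mice and 23.8, 19.9 and 23.0 FPKM across the KO mice. The KO values were all lower than the WT values, by as little as the step from 24.9 to 23.8 FPKM. The log2 fold change was -0.29 (standard error 0.12, 95% interval -0.57 to -0.0020, limma adjusted p = 0.189). It was -0.11 after the GC correction (adjusted p = 0.735).

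*Sae1* (ENSMUSG00000052833, minus strand, chr7:16320234-16387806), the partner subunit of the E1, measured 22.5, 23.6 and 24.7 FPKM across the WT mice and 22.6, 21.1 and 24.1 FPKM across the KO mice. The groups overlapped, and the log2 fold change was -0.06 (standard error 0.10, 95% interval -0.31 to 0.18, limma adjusted p = 0.715), or -0.15 after the GC correction. The *Sae1* to *Uba2* ratio was 0.904, 0.792 and 0.931 in WT and 0.949, 1.06 and 1.05 in KO replicates 1, 7 and 8, so all KO ratios were higher. The transcripts of the pair differ in GC content, 51.7% for *Sae1* and 45.7% for *Uba2*, and after the GC correction the ratios overlapped and their log2 difference turned from 0.22 to -0.05.

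The ligase gene *Pias1* (ENSMUSG00000032405, minus strand, chr9:62878368-62987924), whose protein helps transfer SUMO to transcription factors among others, measured 4.31, 4.76 and 5.23 FPKM across the WT mice and 4.67, 4.74 and 4.43 FPKM across the KO mice. The groups overlapped, and the log2 fold change was -0.04 (standard error 0.12, 95% interval -0.33 to 0.24, limma adjusted p = 0.850). It reversed to 0.24 after the GC correction, with 42.8% GC in its transcripts. The other PIAS-type ligase genes did not share one direction. Of 7 genes, *Pias1* included, 3 had a log2 fold change under 0 and 4 above 0, and after the GC correction *Pias1* moved above and *Pias3* under 0. *Pias2* was the 1 at an unadjusted p under 0.05 on the lower side (log2 fold change -0.39, adjusted p = 0.145), and *Zmiz1* (0.78, adjusted p = 0.123) and *Zmiz2* (0.76, adjusted p = 0.124) were on the higher side. Of all tested genes, 10.9% were lower and 15.3% higher at that threshold. *Zmiz1* and *Zmiz2* encode PIAS-like coactivators and have 56.9% and 59.7% GC. In *Zmiz1*, WT values were 1.65, 2.74 and 3.20 FPKM and KO values 3.52, 4.99 and 4.4 FPKM in replicates 1, 7 and 8. In *Zmiz2* they were 3.26, 5.13 and 6.56 FPKM against 9.18, 8.47 and 7.02 FPKM. Both had all KO libraries above all WT libraries, as did *Pias4* (2.72, 5.74 and 5.81 FPKM in WT, 9.48, 6.15 and 6.89 FPKM in KO). So 3 of the 7 lay above and 1 under, beside 18.3% and 16.2% of all tested genes. After the GC correction the log2 fold changes were 0.34 for *Zmiz1*, 0.16 for *Zmiz2* and 0.18 for *Pias4*. With WT replicate 1 left out as well they were 0.16, -0.0049 and -0.073.

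All 6 SENP protease genes had log2 fold changes under 0 in the deposited values, as did 6040 of the 12334 tested genes. The median of the 6 was -0.27, and after the GC correction *Senp1*, *Senp6* and *Senp7* were above 0. Their transcripts have 42.0% (*Senp7*) to 50.4% (*Senp3*) GC. The median of all tested genes was -0.30 at 40% to 44% GC, -0.17 at 44% to 48% GC and -0.007 at 48% to 52% GC. Of the 6, *Senp2*, *Senp3* and *Senp5* had an unadjusted p under 0.05, beside 10.9% of all tested genes on the lower side, and after the GC correction *Senp3* alone did. The genes of the nucleolar proteases, *Senp3* and *Senp5*, had log2 fold changes of -0.36 (limma adjusted p = 0.167) and -0.33 (limma adjusted p = 0.187), which were -0.38 and -0.12 after the GC correction. *Senp2* (ENSMUSG00000022855, plus strand, chr16:22009484-22049269), which both cuts SUMO precursors and takes SUMO off its targets, measured 10.6, 11.1 and 10.5 FPKM across the WT mice and 9.74, 8.0 and 8.40 FPKM across the KO mice. The KO libraries were all lower and the WT libraries lay close together. The log2 fold change was -0.30 (standard error 0.12, 95% interval -0.57 to -0.030, limma adjusted p = 0.160), and -0.18 after the GC correction (adjusted p = 0.536).

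*Senp6* (ENSMUSG00000034252, plus strand, chr9:80066903-80144953), which trims chains of Sumo2 and Sumo3, measured 22.4, 19.9 and 20.2 FPKM across the WT mice and 16.8, 16.2 and 20.4 FPKM across the KO mice. KO replicate 8 lay inside the WT range. The log2 fold change was -0.23 (standard error 0.13, 95% interval -0.53 to 0.059, limma adjusted p = 0.270), and after the GC correction it was 0.0096. *Senp1* (ENSMUSG00000033075, minus strand, chr15:98038744-98093744), a protease of precursors and conjugates, measured 1.84, 1.96 and 1.98 FPKM across the WT mice and 1.75, 1.97 and 2.0 FPKM across the KO mice. This was the lowest level of the 8 genes. The groups overlapped, and the log2 fold change was -0.02 (standard error 0.15, 95% interval -0.36 to 0.33, limma adjusted p = 0.951), or 0.10 after the GC correction. *Senp1* overlaps the phosphofructokinase gene *Pfkm* on the opposite strand, at 843 to 1143 FPKM in WT and 1177 to 1369 FPKM in KO libraries. The library kit keeps strand, but whether the counting used it is not given in the sources used here, and a part of *Pfkm* in the *Senp1* values was not tested. *Senp6* in turn shares 245 bases at 96.7% identity with the ATP synthase subunit gene *Atp5l*, which was at 434 to 631 FPKM. The *Senp2* to *Senp6* ratio was 0.473, 0.561 and 0.517 in WT and 0.581, 0.495 and 0.412 in KO muscle, with overlap.

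By level, *Sumo2* stood above the other 7 genes in every library. *Uba2*, *Sumo3*, *Sae1* and *Senp6* followed at WT means of 27.1, 25.4, 23.6 and 20.8 FPKM. The WT values of *Uba2*, *Sumo3* and *Sae1* overlapped from one to the next, and those of *Senp6* lay just under those of *Sae1*. *Senp2* at 10.7 FPKM, *Pias1* at 4.76 FPKM and *Senp1* at 1.93 FPKM came after, with no overlap of WT values between neighbours. Fragment numbers, estimated from the FPKM, the depth and the length of the longest coding transcript, were 160 to 262 per library for *Senp1* and 1284 to 2990 for *Sumo2*, so the *Senp1* values carry the largest counting error of the 8.

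All 20 other genes of the SUMO system described here were tested and 0 were called (limma). At an unadjusted p under 0.05, 6 of the 20 were lower and 2 higher in the KO mice, beside 10.9% and 15.3% of all tested genes. After the GC correction 2 were lower and 0 higher, beside 5.47% and 5.72%. In 7 of the 20 every KO library lay under every WT library and in 4 above, beside 16.2% and 18.3% of all tested genes. Their median log2 fold change was -0.11, ranging from -0.55 to 0.78. The lowest was *Desi2*, a gene of a family with SUMO protease members, at 14.3, 13.8 and 15.5 FPKM across the WT mice and 10.8, 8.72 and 10.2 FPKM across the KO mice. The KO values were all lower, and the log2 fold change was -0.55 (standard error 0.12, limma adjusted p = 0.075), or -0.32 after the GC correction. The nucleoporin and ligase gene *Ranbp2* (-0.37, adjusted p = 0.122) and the protease gene *Uspl1* (-0.39, adjusted p = 0.179) were lower at an unadjusted p under 0.05 as well, and after the GC correction their log2 fold changes were -0.02 and -0.23. *Rangap1*, whose protein was the first SUMO target described, had a log2 fold change of 0.16 (adjusted p = 0.418) that turned to -0.20 after the GC correction. Another 24 genes of ubiquitin, its other relatives and their E1 enzymes were counted in the same way, and 22 were tested. At an unadjusted p under 0.05, 5 of the 22 were lower and 7 higher, beside the same 10.9% and 15.3%, with a median log2 fold change of -0.0060. After the GC correction 1 was lower and 1 higher.

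**Figure D3:**
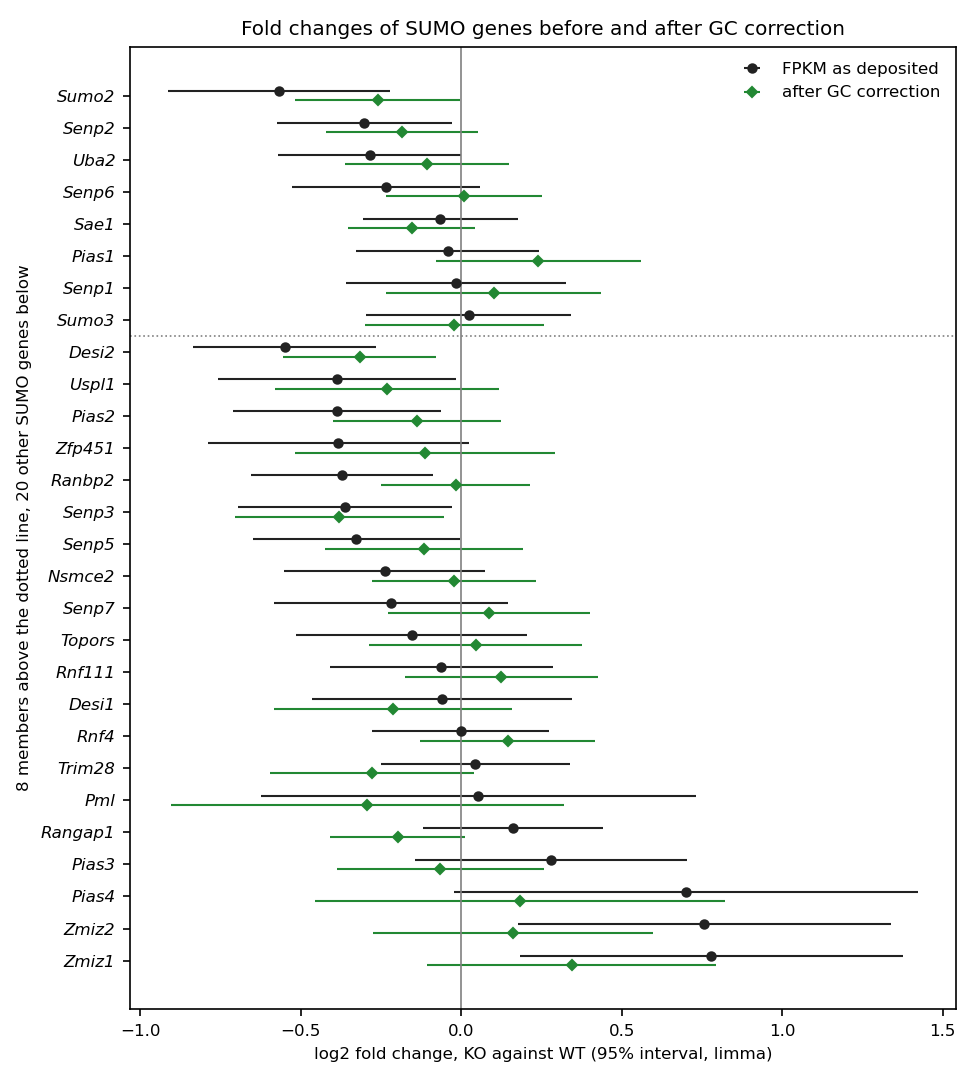
Log2 fold changes of KO against WT (horizontal axis, points) with 95% intervals (lines) for the 8 members, above the dotted line, and the 20 other SUMO genes, in black for the FPKM as deposited and in green after the GC correction. The *Sumo2* point moves from -0.57 to -0.26 and the *Senp6* point from -0.23 to 0.0096.

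Over the 28 SUMO genes Spearman's rho between GC content and log2 fold change was 0.77, and over the 8 members alone it was 0.43. Both are descriptions over genes measured in the same 6 libraries, so the points are not independent. The 8 members have a median of 46.5% GC and all tested genes 50.1%. Among all tested genes of 44% to 48% GC, where *Uba2*, *Senp1*, *Senp2* and *Senp6* lie, the median log2 fold change was -0.17 and the quartiles were -0.29 and -0.02. *Sumo2* lay under the lower quartile of its own band, 40% to 44% GC, which was -0.42, and *Pias1* lay above the upper quartile of that band, -0.16. *Senp2*, at -0.302, lay just under the lower quartile of its band, -0.293, and *Senp1*, at -0.0173, was level with the upper one, -0.018. Other SUMO genes lay outside their quartiles on both sides. *Desi2* (44.3% GC, -0.55) and *Senp3* (50.4% GC, -0.36) lay further under their lower quartiles, -0.29 and -0.17, than *Sumo2* did. *Zmiz1* (56.9% GC, 0.78) lay above its upper quartile, 0.72. After the GC correction, the 8 genes had a median log2 fold change of -0.06 and 1 of them, *Sumo2*, was lower at an unadjusted p under 0.05, beside 5.47% of all tested genes, while 0 were higher, beside 5.72%. Without WT replicate 1 as well, 0 of the 8 were past that threshold.

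**Figure D4:**
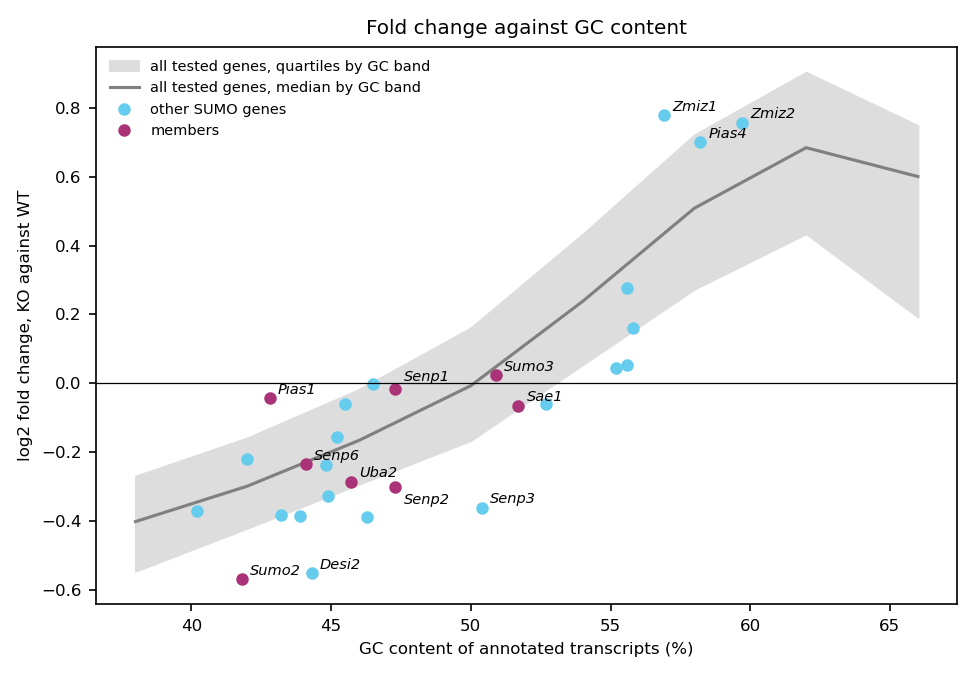
Log2 fold change of KO against WT (vertical axis) against the GC content of the annotated transcripts in percent (horizontal axis) for the 8 members (purple) and 20 other SUMO genes (blue), over the median (line) and quartiles (band) of all tested genes in GC bands of 4 percentage points. Of the members, *Sumo2* lies under and *Pias1* above the shaded quartiles, and *Senp2* lies under them by less. Of the other SUMO genes, *Desi2* and *Senp3* lie further under them than *Sumo2*, and *Zmiz1*, *Zmiz2* and *Pias4* sit at the high end of both axes.

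The promoters of the 3 genes that were lower together at an unadjusted p under 0.05 are shown for their sequence features, and were picked by that outcome. They are RefSeq sequences of GRCm38.p6, 250 bases before to 50 bases after the start, 5′ to 3′ on the gene's strand, in lower case with motif matches on either strand in capitals. The motifs searched were the GC box (GGGCGG), the CCAAT box (CCAAT), an ETS site (CCGGAAG), the TATA box (TATAAA) and the E-box (CACGTG), none of which overlapped another in these windows. The windows are chr11:115536181-115536480 on the minus strand for *Sumo2*, chr7:34168480-34168779 on the minus strand for *Uba2* and chr16:22009234-22009533 on the plus strand for *Senp2*.
Sumo2: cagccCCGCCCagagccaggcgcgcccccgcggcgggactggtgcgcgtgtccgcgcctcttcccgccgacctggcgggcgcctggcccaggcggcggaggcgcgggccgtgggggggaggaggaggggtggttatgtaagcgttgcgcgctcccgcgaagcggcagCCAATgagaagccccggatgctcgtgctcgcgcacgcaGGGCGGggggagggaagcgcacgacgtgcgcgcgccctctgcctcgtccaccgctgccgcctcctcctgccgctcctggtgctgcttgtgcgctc
Uba2: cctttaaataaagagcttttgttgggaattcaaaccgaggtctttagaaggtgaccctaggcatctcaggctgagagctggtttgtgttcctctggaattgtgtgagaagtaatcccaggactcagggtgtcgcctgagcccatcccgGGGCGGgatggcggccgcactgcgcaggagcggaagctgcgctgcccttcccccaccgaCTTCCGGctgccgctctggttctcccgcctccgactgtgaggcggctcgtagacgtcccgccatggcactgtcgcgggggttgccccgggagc
Senp2: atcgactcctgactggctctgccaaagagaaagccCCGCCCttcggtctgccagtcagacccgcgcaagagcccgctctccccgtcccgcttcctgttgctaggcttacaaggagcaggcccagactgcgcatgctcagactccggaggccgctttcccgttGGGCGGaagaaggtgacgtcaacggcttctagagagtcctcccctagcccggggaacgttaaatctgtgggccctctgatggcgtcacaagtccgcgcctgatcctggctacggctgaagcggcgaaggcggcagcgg
The *Sumo2* window held 2 GC boxes and 1 CCAAT box, that of *Uba2* 1 GC box and 1 ETS site, and that of *Senp2* 2 GC boxes. Of all 32851 promoters in the same table, 35.7% held a GC box, 37.4% a CCAAT box, 8.9% an ETS site, 13.6% a TATA box and 7.2% an E-box. CpG dinucleotides numbered 42 in *Sumo2*, 21 in *Uba2* and 25 in *Senp2*, beside a median of 7 over all promoters. Members that did not reach an unadjusted p under 0.05 have such windows too. *Pias1* had 28 CpG and 5 GC boxes, *Senp6* 35 CpG and 2 GC boxes, and the first start of *Sumo3* 31 CpG and 1 GC box. The windows of *Senp1* held 0 GC boxes, with 15 and 29 CpG. The other *Sumo3* windows held 2 CpG and 0 GC boxes, and 36 CpG and 3 GC boxes. CpG-rich starts without a TATA box are common in genes used by most cells.

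The genes whose levels followed *Sumo2* most closely over the 6 libraries, by Pearson's r on log2(FPKM + 0.1), were *Gm14391*, *A030003K02Rik*, *Eif2s3y*, *Tmem126a* and *Thoc7*, with r of 0.994 to 0.998. Among the genes with the lowest r were *Grk6*, *Fzr1*, *Tjap1* and *Lsm7*, at -0.999 to -0.996. These are descriptions over 6 libraries in 2 genotypes, picked as extremes among 12334 genes. The first 5 have 37.3% to 50.2% GC and the 4 named last have 55.8% to 59.9% GC. Among the SUMO genes described here, *Ranbp2* had the highest r with *Sumo2*, 0.876, and *Zmiz1* the lowest, -0.978.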

How the data were processed

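RNA-seq of GAS muscle from 3 WT and 3 Kvβ2 KO mice was used, with groups from the labels. The authors mapped reads to GRCm38 with TopHat and deposited FPKM computed with Cufflinks, as fragments per kilobase scaled to mapped fragments. Tool versions and the annotation release are not given in the sources used here. No counts were tested. Depth was estimated from the FPKM of 1 fragment on genes with 1 annotated transcript (89.7% to 93.8% of low values whole within a tolerance of 0.15). Among 14983 genes above 0 throughout, any pair of libraries had at most 1 identical value.

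KO and WT libraries were compared by limma 3.58.1 (R 4.3.3), with a variance trend, on values of log2(FPKM + 0.1). The filter kept 12334 genes whose average reached 0.5 FPKM, p-values were adjusted by Benjamini-Hochberg over all of them, and an adjusted p under 0.05 made a call. This scale understates changes of low genes. The fit was tested on simulated data. P-values measure the spread between mice. The GC correction subtracted a loess curve (span 0.3) of each library's deviation from the mean on GC content, known for 97.2% of tested genes. Positions and transcripts came from GENCODE M21. Copies were found with BLAST 2.17.0. Figures were drawn with matplotlib 3.10.9. Members and lists were chosen with earlier results of these data known. The text names all members, the other SUMO genes of a fixed list, with values for some, and the 5 tested genes most and 5 least like *Sumo2*. Some genes that this rule covers are not reported here and were left out of the list counts. *Sae1* has no entry in the promoter table. Alternatives covered pseudocount, filter, scaling, variance model, array weights, replicate block, GC content, length and leaving out each library.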

Additional observations from a re-analysis of the deposited data

How the results depend on the processing

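Over all tested genes, 40 were called, and this became 11 with a pseudocount of 1, 20 without the filter, 167 with a filter at 5 FPKM, 18 with quantile normalization, 19 without the variance trend, 3147 with array weights, 14 with the GC correction, 19 with the length correction, 1 when only genes above 0 in all libraries were tested and 11 to 38 with each library left out. Members called stayed at 0 under these settings and with each library left out (0 to 0), except for 3 with array weights. The filter at 5 FPKM left *Pias1* and *Senp1* untested. Members at an unadjusted p under 0.05 were 3, and 1 with the GC correction and 1 to 3 with each library left out. The same-numbered libraries did not deviate together (correlations -0.025, -0.08 and 0.034), so the numbers were not taken to pair the mice. With the replicate block, 13 genes were called over all tested genes, 0 members were called and 1 member, *Sumo2*, had an unadjusted p under 0.05 (adjusted p = 0.127). With the replicate block and the GC correction these were 12, 0 and 0. With the GC correction and without WT replicate 1, chosen after the values were seen, they were 15, 0 and 0.

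Of the log2 fold changes of the genes named with such alternatives, 355 values kept their direction and side of the threshold and 30 changed sign. With array weights 9 genes gained a call. After the GC correction the log2 ratio, KO minus WT, went from -0.591 to -0.238 for *Sumo2* to *Sumo3* and changed sign, from 0.221 to -0.048, for *Sae1* to *Uba2*. The sign of *Sumo3* turned with median-ratio scaling (-0.001), array weights (-0.186) and length correction (-0.069). With each library left out, log2 fold changes ranged from -0.0925 to 0.148 for *Sumo3*, from -0.112 to 0.0261 for *Pias1* and from -0.0525 to 0.0402 for *Senp1*. With the GC correction the sign turned for *Sumo3* (-0.022), *Pias1* (0.241), *Senp1* (0.101), *Senp6* (0.0096), *Pias3* (-0.066), *Senp7* (0.086) and *Rangap1* (-0.199). It also turned for *Trim28* (-0.28), *Pml* (-0.29), *Topors* (0.05), *Rnf111* (0.13) and *Rnf4* (0.14), 12 of the 28 SUMO genes in all. The replicate block left the log2 fold changes of the genes named with such alternatives as they were. With the GC correction and without WT replicate 1 it turned for *Sumo3* (-0.112), *Pias1* (0.137), *Senp1* (0.058), *Senp6* (0.034), *Pias3* (-0.155), *Pias4* (-0.073), *Zmiz2* (-0.0049), *Senp7* (0.084) and *Rangap1* (-0.211). The cause was not tested. FPKM without counts limit low genes most, such as *Senp1*.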
